A study of Papaver somniferum with 12 samples.

Results

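Leaves of opium poppy (Papaver somniferum) at the jointing phase were compared with leaves at the seedling phase. The comparison rests on 3 jointing and 3 seedling libraries, chosen by the growth phase in their titles, out of 12 RNA sequencing libraries that also cover bolting and florescence. All 6 came from leaves of the original cultivar of the study, B1, with no treatment listed, and the methods describe the libraries of a phase as independent samples without saying how many plants each holds. The phases were collected on successive dates of a single season, so growth phase and date cannot be told apart. The RNA integrity listed by the study was higher in the jointing than in the seedling RNA and highest in jointing replicate 3, and its part in the results was not tested. Values are RPKM, reads per kilobase of unigene and per 1e6 mapped reads, where a unigene is a non-redundant transcript sequence that the authors built from pooled long reads. Of 61856 unigenes, 31242 were tested, namely those whose 12-library mean reached 1 RPKM. The table gives identifiers only, and 0 of them occur in the RefSeq gene table of the opium poppy genome that was at hand. Gene names, functions, sequences and leaf markers were therefore not analysed here.

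Jointing is the phase in which the stem of the poppy elongates above the rosette of leaves that the seedling forms. Leaves carry out photosynthesis, and in most plants a small number of transcripts for the photosynthetic machinery make up a large part of leaf mRNA. Poppy leaves also contain laticifers, the latex-bearing cells in which benzylisoquinoline alkaloids such as morphine accumulate. RPKM is relative to the mapped reads of a library, so when the most abundant transcripts take fewer of these reads, the others together take more.

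Jointing replicate 3 stood apart from the other 5 libraries. On log2(RPKM + 1) it correlated with jointing replicates 1 and 2 at 0.961 and 0.947 across the tested unigenes, whereas these replicates correlated with each other at 0.972. The seedling libraries correlated with each other at 0.979 to 0.983. Between the phases, jointing replicate 3 correlated with the seedling libraries at 0.906 to 0.912, jointing replicate 1 at 0.955 to 0.959, and jointing replicate 2 at 0.957 to 0.972. Jointing replicate 2 was as close to seedling replicate 1 (0.972) as to jointing replicate 1. Over all 12 libraries, jointing replicates 1 and 2 each correlated best with a bolting library. These were bolting replicate 2 for jointing replicate 1 (0.980) and bolting replicate 3 for jointing replicate 2 (0.973). Unigenes are not independent replicates, so these values are descriptions. The median SD of a unigene between libraries was 0.21 at jointing and 0.13 at seedling on log2(RPKM + 1). The number of reads behind a value is unknown. The study lists clean bases per library, higher on average at jointing with overlapping ranges, and these were not used here. Relative depth was instead estimated from the lowest values of 306 rare unigenes. It lay between 0.960 and 1.03 of the 12-library mean at jointing and between 0.940 and 1.03 at seedling.

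The first result concerns the composition of the libraries. The 106 unigenes whose mean reached 1000 RPKM held 39.9%, 39.5% and 28.7% of the summed RPKM in jointing replicates 1, 2 and 3, against 43.1%, 45.3% and 43.9% in seedling replicates 1, 2 and 3. Every jointing library was below every seedling library. The mean share was 36.0% ± 6.36 at jointing and 44.1% ± 1.13 at seedling (SD, n = 3 each), a difference of -8.10 percentage points (two-sided exact permutation test, p = 0.1, adjusted p = 0.117 over 7 classes). With 3 libraries against 3 this test cannot give less than 0.1. Without jointing replicate 3 the difference was -4.43 percentage points. The shares of most classes below were higher at jointing. Unigenes of 5 to 15 RPKM held 6.38%, 6.61% and 8.30% in the jointing libraries, against 5.45%, 5.01% and 5.20% in the seedling libraries. Unigenes of 200 to 1000 RPKM held 23.4% ± 1.47 at jointing and 22.5% ± 0.196 at seedling, and there jointing and seedling libraries overlapped (exact permutation test, p = 0.4).

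**Figure D1:**
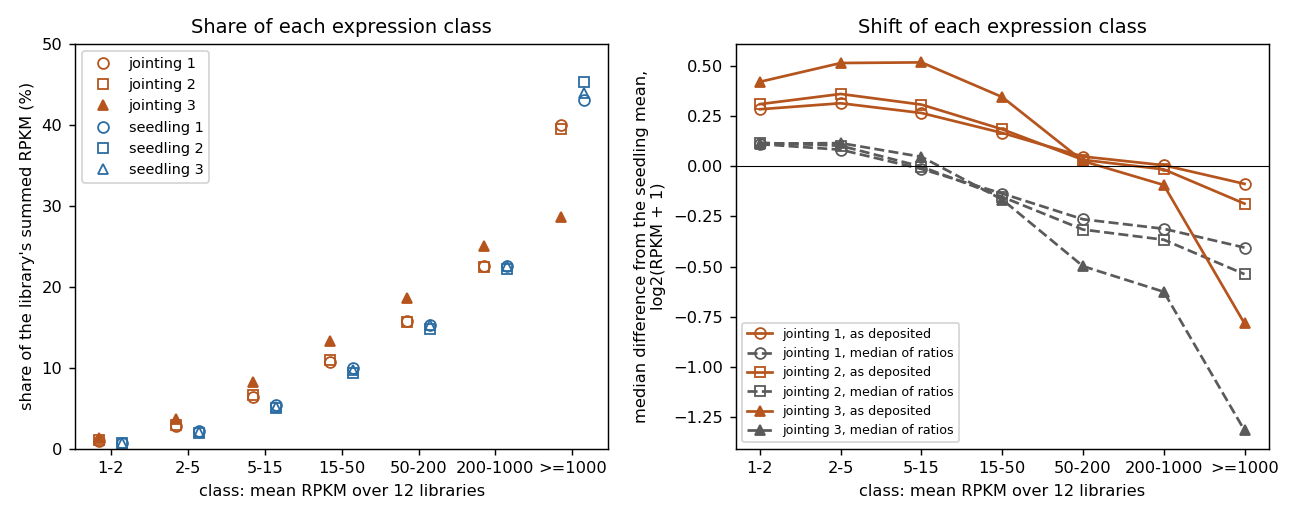
Share of each library's summed RPKM held by 7 classes of unigenes (left) and median difference of each class from the seedling mean on log2(RPKM + 1) (right), with classes set by mean RPKM over the 12 libraries. Points are single libraries, lines on the right join the classes of a jointing library as deposited (solid) or scaled by the median of ratios (dashed), and jointing replicate 3 (filled triangles) lies at 28.7% and at -0.78 in the highest class as deposited.

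The shift was not the same at all expression levels. The median difference of all tested unigenes, jointing minus seedling, was 0.34 on log2(RPKM + 1) as deposited. It was 0.34 for the 7160 unigenes of 1 to 2 RPKM, 0.40 for the 9035 of 2 to 5 RPKM, 0.37 for the 7932 of 5 to 15 RPKM, 0.24 for the 4517 of 15 to 50 RPKM, 0.03 for the 1854 of 50 to 200 RPKM, -0.04 for the 638 of 200 to 1000 RPKM and -0.35 for the 106 above. Low-abundance unigenes thus lay higher at jointing and the most abundant ones lower. Dividing each library by its median of ratios to the 12-library geometric mean moved the overall median to 0.03 but kept this slope, with 0.12 in the lowest class and -0.75 in the highest. Without jointing replicate 3 the medians of the lowest and the highest class were 0.29 and -0.13 as deposited, and 0.11 and -0.46 scaled. As deposited, much of the difference of the highest class therefore rested on that library. In single libraries the scaled median of the highest class was -0.41, -0.54 and -1.32 in jointing replicates 1, 2 and 3. All jointing libraries therefore shared the direction, and replicate 3 had the largest deviation.

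Among the 106 most abundant unigenes, 90 had a lower mean RPKM at jointing and 16 a higher one, and the median ratio of jointing to seedling was 0.793. All jointing libraries were below all seedling libraries for 54 of them and above for 4. Over all tested unigenes these shares were 8.31% below and 51% above. Replicate 3 was the lowest of the 6 libraries for 94 of the 106, and without it 76 still had a lower jointing mean. With limma (adjusted p under 0.05 and a difference of 1 or more in size) 5 of them were called lower and 0 higher as deposited, beside 1.64% lower and 3.99% higher of all tested unigenes. With median-of-ratios scaling 23 were called lower and 0 higher, beside 3.43% lower and 1.32% higher of all tested. Without jointing replicate 3 the counts were 4 lower as deposited and 5 lower scaled, and 0 higher in each. The most abundant unigene of all, PB.734.2622, had 71616, 66716 and 43353 RPKM in jointing replicates 1, 2 and 3, against 71432, 74318 and 80775 RPKM in seedling replicates 1, 2 and 3. Its groups overlapped, since jointing replicate 1 was above seedling replicate 1. Its difference was -0.35 ± 0.20 (SE) as deposited (limma, adjusted p = 0.167) and -0.75 ± 0.30 scaled (limma, adjusted p = 0.0951), so neither scaling gave a call. Without jointing replicate 3 it was -0.13 as deposited (limma, adjusted p = 0.486) and -0.46 scaled (limma, adjusted p = 0.157).

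The second result is the number of unigenes that differed. Calls required an adjusted p under 0.05 (limma, Benjamini-Hochberg) together with a difference of 1 or more, in either direction, on log2(RPKM + 1). As deposited 1247 unigenes (3.99% of those tested) were called higher at jointing and 511 (1.64%) lower, 5.63% in all. With median-of-ratios scaling 412 (1.32%) were called higher and 1073 (3.43%) lower, 4.75% in all. Higher calls were thus the majority as deposited and lower calls the majority after scaling. Quantile normalization gave 474 higher and 772 lower, and totals made equal without the 100 highest unigenes gave 816 higher and 646 lower. No unigene was called in opposite directions by the deposited and the median-of-ratios values. The rule nearly fixes this, since a call needs a difference of 1 or more in size in each scaling. Scaling moved the median difference only from 0.34 to 0.03. The scalings differed in which unigenes passed: 835 were called higher as deposited only, 565 were called lower after median-of-ratios scaling only, and 3 were called lower as deposited only.

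Both scalings called 920 unigenes in the same direction (2.94% of those tested), 412 higher (1.32%) and 508 lower (1.63%). The 412 were all of the higher calls after scaling, and the 508 all but 3 of the 511 lower calls as deposited. The set of 920 depended on jointing replicate 3. Without it both scalings called 491 unigenes (1.57%), 207 higher (0.663%) and 284 lower (0.909%), and 462 of them were among the 920. The deposited values alone then gave 953 calls (3.05%), 667 higher (2.13%) and 286 lower (0.915%), and the scaled values 806 (2.58%), 207 higher (0.663%) and 599 lower (1.92%). Leaving out another library gave 627 to 1191 calls in both scalings, with the lowest value without seedling replicate 2. In the full fit and in all 6 fits that left out a library, 135 unigenes were higher and 262 lower in both scalings. A test of whether differences were larger than 1, rather than different from 0, called 5 unigenes in both scalings, 1 higher and 4 lower.

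**Figure D2:**
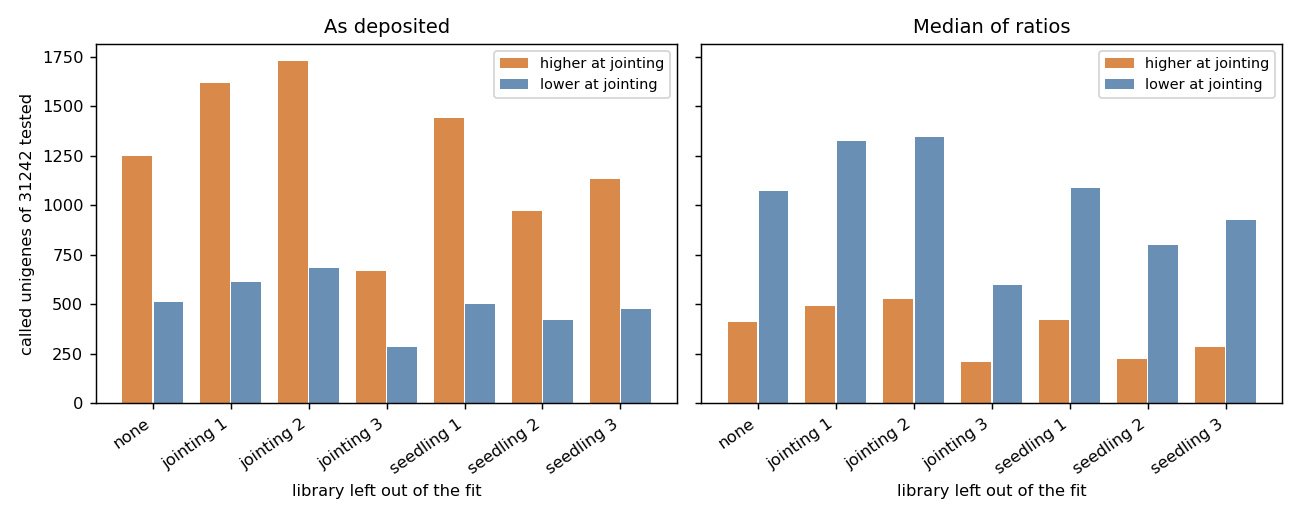
Called unigenes, higher (orange) or lower (blue) at jointing, as deposited (left) and after median-of-ratios scaling (right), in the fit on all libraries and with each of the 6 libraries left out. Without jointing replicate 3 the calls were 667 higher and 286 lower as deposited, and 207 higher and 599 lower scaled.

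Before any test, jointing and seedling libraries were fully separated for 59.3% of the tested unigenes as deposited, with all jointing libraries above for 51% and below for 8.31%. After median-of-ratios scaling the share was 41.6%, with 20.4% above and 21.2% below. Leaving out jointing replicate 3 raised these shares to 65.1% as deposited and 50.6% scaled, as fewer libraries then had to be apart. Of the 920 unigenes called in both scalings, the libraries did not overlap in either scaling for 408 of the 412 higher and 500 of the 508 lower ones. Such separation largely follows from the choice of the set in the same libraries. Of all 31242 tested unigenes, 6372 were separated with jointing above in both scalings and 2597 with jointing below. The shares of separated libraries over all tested unigenes, 59.3% and 41.6%, were above the shares called. Without the threshold on the size of the difference, 14211 unigenes passed the adjusted p as deposited and 6741 after scaling.

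The unigenes that were higher at jointing in both scalings were spread over the expression classes. Their mean over the 12 libraries had a median of 5.43 RPKM, with quartiles at 2.65 and 14.7 RPKM, beside 4.70 RPKM for all tested unigenes. The difference, as deposited, ranged from 1.16 to 4.91 on log2(RPKM + 1) with a median of 1.57, and 71 of the 412 reached 2 and 6 reached 3. After scaling the median was 1.27. They made up 0.866% of the unigenes of 1 to 2 RPKM, 1.42% of those of 2 to 5 RPKM, 1.51% of those of 5 to 15 RPKM, 1.24% of those of 15 to 50 RPKM, 2.10% of those of 50 to 200 RPKM, 1.10% of those of 200 to 1000 RPKM and 0 of those above, beside 1.32% over all tested unigenes. As a group they summed to 1.26%, 1.24% and 2.79% of the RPKM in jointing replicates 1, 2 and 3, against 0.523%, 0.346% and 0.425% in seedling replicates 1, 2 and 3. That the phases are apart in this sum follows from the choice of the set in the same 6 libraries.

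The unigenes that were lower at jointing in both scalings were more abundant. Their mean had a median of 16.6 RPKM, with quartiles at 4.82 and 72.1 RPKM. The difference as deposited ranged from -5.30 to -1.0 with a median of -1.39, and 78 of the 508 reached -2 and 19 reached -3. After scaling the median was -1.73. They made up 5.83% of the unigenes of 50 to 200 RPKM and 7.37% of those of 200 to 1000 RPKM, but 0.531% of those of 1 to 2 RPKM, beside 1.63% over all tested unigenes. They summed to 2.92%, 2.76% and 1.51% of the RPKM in jointing replicates 1, 2 and 3, against 6.51%, 7.19% and 6.47% in seedling replicates 1, 2 and 3, again a description of the libraries that chose them. The most abundant of them, PB.225.272, was picked out after its values had been seen. This unigene had 7915, 5067 and 1684 RPKM in jointing replicates 1, 2 and 3, against 17919, 21272 and 14512 RPKM in seedling replicates 1, 2 and 3. All jointing libraries were below all seedling libraries, with a difference of -2.12 on log2(RPKM + 1) as deposited (limma, adjusted p = 0.00842) and -2.52 scaled (limma, adjusted p = 0.0108), and of -1.48 and -1.81 without jointing replicate 3 (limma, adjusted p = 0.0169 and 0.0179).

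Jointing replicate 3 moved furthest in both sets. On scaled values it was the highest jointing library for 331 of the 412 higher unigenes and the lowest for 468 of the 508 lower ones. Over all tested unigenes it was the highest for 39.3% and the lowest for 41.4%. These sets were chosen with replicate 3 in the fit. In the sets called without it, its own values took no part in the fit. They did enter the filter on the mean, which was taken over all libraries and decided which unigenes could be called. The seedling libraries took part in both the filter and the fit. Part of the agreement is therefore fixed by the choice. The shares over all tested unigenes are no measure of what the choice alone would give. On scaled values, replicate 3 was above all 3 seedling libraries for 202 of the 207 higher unigenes (97.6%, beside 41.5% of all tested). It was below all 3 for 283 of the 284 lower ones (99.6%, beside 37.1%). Its median difference from the seedling mean was 1.63 in the higher set and -2.56 in the lower set, whereas the mean of jointing replicates 1 and 2, which chose these sets, was at 1.24 and -1.62.

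The libraries of the later phases place both sets in the course of growth. The seedling and jointing libraries chose the sets, so their levels are a description. On log2(scaled RPKM + 1), the median level of the 412 higher unigenes was 2.23, 1.79 and 1.97 in the seedling libraries, 3.23, 3.16 and 3.90 at jointing, 2.06, 2.71 and 2.56 at bolting, and 1.46, 1.53 and 1.36 at florescence. On these scaled values the 3 florescence libraries lay below all the other libraries. As deposited they were at 1.56, 1.66 and 1.53, and seedling replicate 2, at 1.61, was below florescence replicate 2. The median level of the 508 lower unigenes was 4.80, 4.99 and 4.87 at seedling, 3.22, 3.33 and 2.11 at jointing, 4.20, 3.33 and 3.21 at bolting, and 4.14, 4.07 and 4.10 at florescence. Among the bolting libraries, replicate 1 was nearest to the seedling and florescence libraries in both sets. Bolting replicates 2 and 3 were nearer to jointing than bolting replicate 1 was. In the higher set they still lay between the seedling and the jointing libraries. Over all tested unigenes the scaled median stayed between 2.45 and 2.51 in all 12 libraries, which the scaling itself largely fixes. As deposited it ran from 2.24 in seedling replicate 2 to 2.77 in jointing replicate 3.

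**Figure D3:**
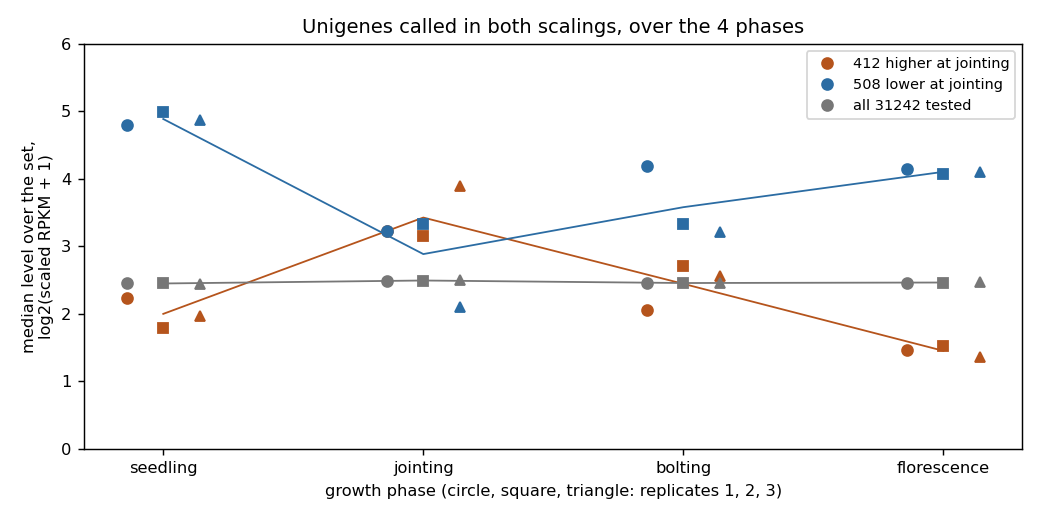
Median level of the unigenes called in both scalings, 412 higher (orange) and 508 lower (blue) at jointing, and of all 31242 tested (grey), in each of the 12 libraries on log2(scaled RPKM + 1). Lines join the phase means, and the points of both sets coincide for jointing replicate 1 (3.23 and 3.22). The higher set lies between 3.16 and 3.90 at jointing and between 1.36 and 1.53 at florescence, and the lower set between 2.11 and 3.33 at jointing and between 4.07 and 4.14 at florescence.

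Florescence against bolting uses none of the 6 libraries compared here, although it shares the spread estimated in the fit and the filter on the mean. Of the 412 unigenes higher at jointing, 11 were called higher and 122 lower at florescence than at bolting in both scalings, 2.67% and 29.6% of the set. Of the 508 lower at jointing, 105 were called higher and 16 lower, 20.7% and 3.15% of the set. Over all tested unigenes 2.29% were called higher and 2.58% lower. The median scaled difference, florescence minus bolting, was -0.68 in the set higher at jointing and 0.31 in the set lower at jointing, beside 0.00 over all tested unigenes. With the sets chosen without jointing replicate 3, 72 of the 207 higher unigenes were lower at florescence and 80 of the 284 lower ones were higher.

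Of the unigenes called in both scalings, 175 higher and 301 lower ones also had no overlap between libraries in either scaling and at least 15 RPKM in the higher phase. The 2 with the largest difference in each direction are described individually. PB.56365.1 had 192, 139 and 413 RPKM in jointing replicates 1, 2 and 3, against 15, 4.99 and 3.30 RPKM in seedling replicates 1, 2 and 3. The lowest jointing library was above the highest seedling library, and jointing replicate 3 was the highest. The difference was 4.91 ± 0.53 (SE) as deposited (limma, adjusted p = 0.00104), 4.54 ± 0.50 scaled (adjusted p = 0.00135), and 4.46 ± 0.54 as deposited without jointing replicate 3 (adjusted p = 0.00333). At bolting it had 68.5, 132 and 97.7 RPKM, and at florescence 5.18, 1.72 and 1.91 RPKM.

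PB.37707.4 had 408, 333 and 544 RPKM in jointing replicates 1, 2 and 3, against 35.2, 16.2 and 18.6 RPKM in seedling replicates 1, 2 and 3. Every jointing library was above every seedling library. The difference was 4.19 ± 0.49 (SE) as deposited (limma, adjusted p = 0.00117) and 3.80 ± 0.47 scaled (adjusted p = 0.00183). It had 106, 319 and 207 RPKM at bolting and 12.03, 3.79 and 2.97 RPKM at florescence. Both unigenes had their highest mean at jointing and their lowest at florescence.

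PB.60083.2 was listed at 0, 1.77 and 0.13 RPKM in jointing replicates 1, 2 and 3, against 38.5, 129 and 36.6 RPKM in seedling replicates 1, 2 and 3. It stayed low afterwards, with 2.07, 0 and 0.34 RPKM at bolting and 0.12, 0 and 0.47 RPKM at florescence. The difference was -5.30 ± 0.55 (SE) as deposited (limma, adjusted p = 0.000996) and -5.56 ± 0.57 scaled (adjusted p = 0.00124).

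PB.60467.1 was listed at 0, 0.86 and 0 RPKM in jointing replicates 1, 2 and 3, against 31.0, 52.3 and 46.5 RPKM in seedling replicates 1, 2 and 3. Unlike PB.60083.2 it was present again later, with 20.4, 6.84 and 5.78 RPKM at bolting and 79.6, 138 and 107 RPKM at florescence. The difference was -5.14 ± 0.41 (SE) as deposited (limma, adjusted p = 0.000549) and -5.37 ± 0.44 scaled (adjusted p = 0.000509). In both of these unigenes jointing replicate 2 was the jointing library with the highest value. All 4 unigenes were called in both scalings in each fit that left out a library.

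**Figure D4:**
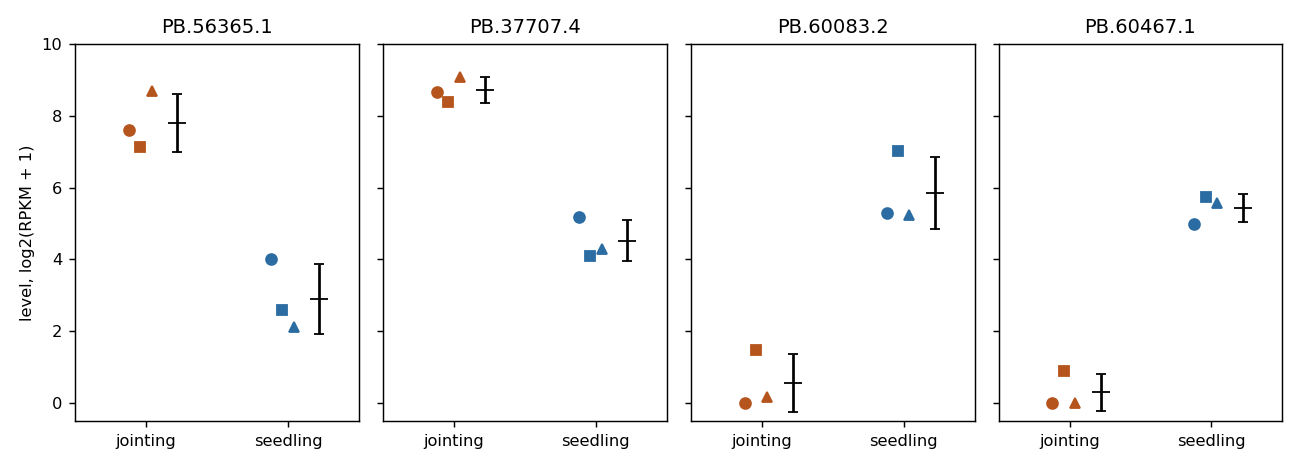
Level of the 4 unigenes named by the rule, on log2(RPKM + 1) as deposited, in jointing (orange) and seedling (blue) leaves. Circles, squares and triangles are replicates 1, 2 and 3, and bars give the mean and SD (n = 3). The groups do not overlap in any panel, with 139 to 413 RPKM at jointing against 3.30 to 15 RPKM at seedling for PB.56365.1.

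The third result concerns presence and near absence. Only 4 of the 61856 unigenes (0.00647%) reached 1 RPKM in every library of a phase while staying at or under 0.1 RPKM in every library of the other, 3 of them (0.00485%) on at jointing and 1 (0.00162%) on at seedling. These 4 were named after their values were seen. PB.57857.1 had 2.56, 4.09 and 3.42 RPKM in jointing replicates 1, 2 and 3, against 0, 0.06 and 0.07 RPKM in seedling replicates 1, 2 and 3. PB.60324.1 had 1.44, 1.43 and 1.04 RPKM at jointing and was listed at 0 in all 3 seedling libraries. PB.20899.1 had 1.04, 1.30 and 2.23 RPKM at jointing, against 0.02, 0.02 and 0.07 RPKM at seedling. PB.13139.4 was the only one in the opposite direction, listed at 0 in all 3 jointing libraries, against 2.51, 7.35 and 4.62 RPKM in seedling replicates 1, 2 and 3. These are low levels. The mean over the 12 libraries was under 1 RPKM for PB.60324.1 and PB.20899.1, which were therefore not tested. The difference was 2.05 ± 0.14 (SE) for PB.57857.1 (limma, adjusted p = 0.000227) and -2.45 ± 0.57 for PB.13139.4 (limma, adjusted p = 0.00828).

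Many more unigenes were on or off in a way that cut across the phases, a pattern looked for after the data were seen. In the 6 libraries 304 unigenes were at least 1 RPKM or at most 0.1 RPKM in every library and took both states. The 4 above follow the phase, 1.32% of the 304. For 123 a single library differed from the other 5, and for 145 libraries of both phases were split. The most frequent split with libraries of both phases on each side had 33 unigenes that were on in jointing replicates 1 and 3 and in seedling replicate 2, with median values of 4.13, 0 and 5.52 RPKM in jointing replicates 1, 2 and 3, against 0, 1.94 and 0 RPKM in seedling replicates 1, 2 and 3. Another 25 were on in jointing replicate 2 and in seedling replicates 1 and 2, with medians of 0, 6.11 and 0 RPKM in jointing replicates 1, 2 and 3, against 5.31, 2.16 and 0 RPKM in seedling replicates 1, 2 and 3. Jointing replicate 2 and seedling replicate 1 were in the same state for 266 of the 304 (87.5%), and jointing replicate 1 and seedling replicate 2 for 213 (70.1%). What the libraries of these pairs have in common besides their values is not given in the sources used here. For the other pairs of a jointing and a seedling library the share ran from 30.9% to 58.6%. Shares for pairs of libraries of the same phase are not given here, so these values have no within-phase share beside them. Another 23 unigenes were on in all seedling libraries and in jointing replicate 2 but off in jointing replicates 1 and 3. Without jointing replicate 2 the count of unigenes following the phase was therefore 35, with 9 on at jointing and 26 on at seedling.

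**Figure D5:**
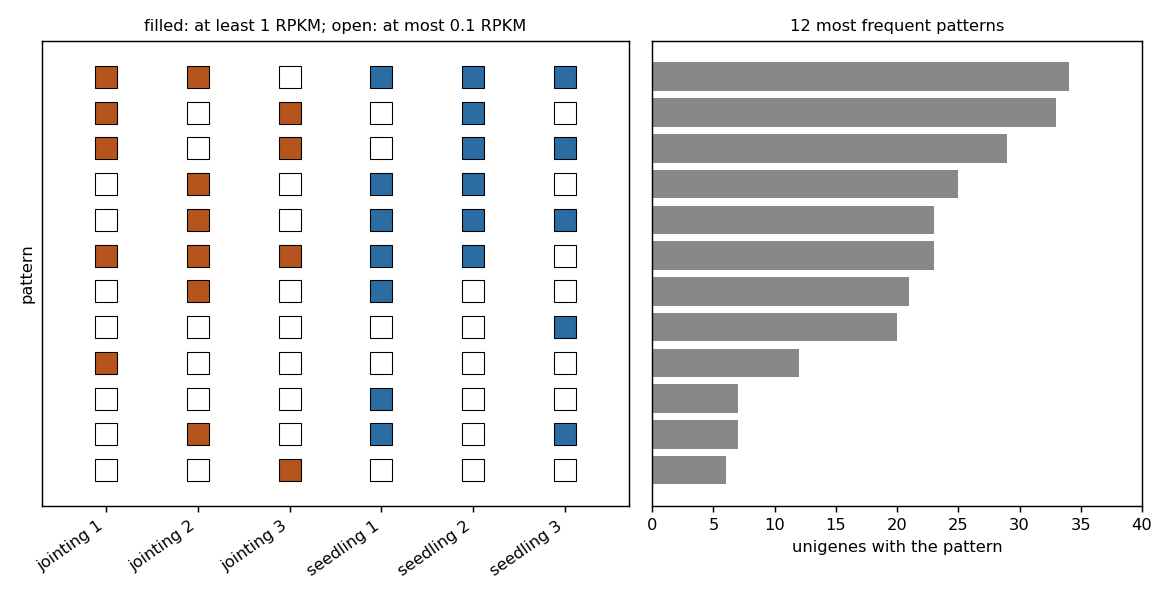
The 12 most frequent on or off patterns among 304 unigenes in the 3 jointing (orange) and 3 seedling (blue) libraries, with filled squares for at least 1 RPKM and open squares for at most 0.1 RPKM (left), and the number of unigenes with each pattern (right). Counts run from 34 to 6, and none of the 12 separates the phases.

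Above 0.1 RPKM stood 46771, 46789 and 46765 unigenes in jointing replicates 1, 2 and 3, against 45381, 44879 and 44780 in seedling replicates 1, 2 and 3. At least 15 RPKM was reached by 7221, 7298 and 8059 unigenes in the jointing libraries, against 6546, 6307 and 6377 in the seedling libraries. The groups did not overlap in either count (two-sided exact permutation test, p = 0.1 each, the smallest possible). After median-of-ratios scaling the counts above 0.1 RPKM were 46771, 46789 and 46113 at jointing and 46288, 45833 and 45719 at seedling, which overlap (exact permutation test, p = 0.2). The 10 highest unigenes of a library held 16.3%, 15.7% and 11.3% of the summed RPKM in the jointing libraries, against 17.6%, 18.8% and 18.4% in the seedling libraries (exact permutation test, p = 0.1).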

How the data were processed

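The authors extracted RNA with TRIzol, sequenced paired ends on an Illumina instrument, mapped the cleaned reads with hisat2 (HISAT2 2.05 in the submitters' notes) to unigenes from pooled PacBio reads, and estimated expression with RSEM. The deposited values are RPKM, with no further normalization between libraries stated. Near-identical sequences share reads that RSEM divides by estimation. Every identifier has a first number of its own, so unigenes could not be grouped by it.

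Phases came from the titles and columns were matched by the library code in the descriptions, with 0 unmatched columns. limma 3.58.1 in R 4.3.3 was fitted to log2(RPKM + 1) of 31242 unigenes (mean of at least 1 RPKM) in all 12 libraries, with the phase as factor and a mean-variance trend, as deposited and divided by the median of ratios over 30549 unigenes above 0 in all libraries. Differences on this scale understate changes of low values. No count test was run, since RPKM values are not counts. Single values were compared by exact permutation over the 20 splits of 6 libraries. The limma p-values set a difference against the spread within phases, pooled over the 12 libraries, and the permutation p-values use only the 6 libraries compared. Neither covers variation beyond these libraries. Named unigenes had the largest differences among those called in both scalings, not overlapping, and at least 15 RPKM in the higher phase. The fit was tested on simulated data. Alternatives changed the pseudocount, filter, thresholds, scaling, variance model, fitted libraries and replicate block. The comparison, its lists and its rules were chosen with earlier results of these data known.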

Additional observations from a re-analysis of the deposited data

How the results depend on the processing

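The 4 named unigenes kept their direction and call in every alternative in which they were looked up. These did not include the test against a difference of 1. That test called 1 unigene higher and 4 lower in both scalings, so PB.56365.1 and PB.37707.4 cannot both have kept their call there. The called counts given here are in the order as deposited, median-of-ratios scaling and both scalings, and the reported counts were 1758, 1485 and 920. A minimum mean of 10 RPKM gave 729, 874 and 453 calls, by fewer unigenes tested. Without a threshold on the size the counts were 14211, 6741 and 4507. A test against a difference of 1 gave 9, 5 and 5. At an adjusted p under 0.01 median-of-ratios scaling gave 934 and both scalings 526. Pseudocount 0.1 gave 3456 as deposited, as low values then differ by more. With a library left out the counts ran from 953 to 2410, from 806 to 1873 and from 491 to 1191, the lowest each without jointing replicate 3. Scaling factors from every unigene above 0 in all libraries gave 363 higher and 1191 lower.

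Fitted on the 6 libraries alone, the replicate block gave 1237, 310 and 245 calls, and in the fit on 12 libraries 1759, 1468 and 895. The cause was not tested. The labels do not say whether equal replicate numbers pair libraries of different phases. As a description, the deviations of same-numbered jointing and seedling libraries correlated at -0.36, -0.21 and 0.02. Those of jointing replicate 2 with seedling replicate 1 correlated at 0.28, and those of jointing replicate 1 with seedling replicate 2 at 0.30. Of the 3 seedling libraries, 0 correlated best with its own number. These correlations constrain each other, since the deviations of a phase sum to 0. Without the block the fit on 6 libraries gave 1673, 1294 and 794.

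The median difference of all unigenes was 0.22 as deposited and -0.16 scaled with a minimum of 10 RPKM, and 0.18 and 0.019 with no filter, as it varies with expression level. Its range with a library left out was from 0.28 to 0.37 and from 0.02 to 0.03. The 4 unigenes on in a phase and off in the other became 2 with exactly 0 demanded and 2 on scaled values. With a library left out they numbered 5 to 35: 9 without jointing replicate 1, 35 without jointing replicate 2, 12 without seedling replicate 1 and 7 without seedling replicate 3. Reads per unigene are unknown, so the counting error of values near 0.1 RPKM could not be given. The results without jointing replicate 3 for expression classes, overlap and florescence against bolting, and the on or off patterns, were added after seeing the data.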
